A study of Sus scrofa with 4 samples.

Results

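The genes described here encode subunits of the mitochondrial respiratory chain and of the ATP synthase, and their mRNA was measured in pig spleen with a one-colour oligonucleotide microarray. They were chosen by symbol alone: NDUFA, NDUFB, NDUFC, NDUFS and NDUFV genes of complex I, SDHA to SDHD of complex II, UQCR genes and CYC1 of complex III, CYCS, the COX4 to COX8 genes of complex IV and the ATP5 genes of the ATP synthase. NDUFAF assembly factors were left out. The RefSeq table of the pig held 71 such genes, and 27 of them had a probe that could be named on the array, out of 3020 genes named in all. These 27 genes carried 110 probes, and the brightest probe over the 4 arrays stood for each gene. The other 44 genes had no named probe and were not analysed here, among them SDHA, SDHC and most of complex I. All 27 genes were well above background on at least 1 array, and 26 of them on all 4 arrays. The exception was COX8H.

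The series held 4 arrays, each with total RNA of the spleen of 1 Minnesota miniature swine. The control group was 3 arrays of wild-type animals (WT 1, WT 2 and WT 3), and the compared group was 1 array of an animal with the genotype IL2RG +/-. IL2RG encodes the common gamma chain, a part of the receptor for interleukin 2 and of several other cytokine receptors, and 1 allele had been cut with TALENs, a pair of designed nucleases, in cells that were then used for cloning by nuclear transfer. The animals of that genotype are thus clones of edited cell colonies, the methods of the study do not say which colony gave this spleen, and the labels give no age. The comparison asks how loss of an IL2RG allele altered gene expression in the spleen, and with 1 IL2RG +/- array it carries no measure of the spread between animals of that genotype.

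The respiratory chain sits in the inner mitochondrial membrane. Complex I takes electrons from NADH and complex II takes them from succinate, both pass them through ubiquinone to complex III, cytochrome c carries them on to complex IV, and complex IV reduces oxygen. The proton gradient that builds up on the way drives the ATP synthase. Most subunits are encoded in the nucleus and are made in nearly every cell, whereas a few subunits of complex IV exist as separate isoforms for heart and skeletal muscle. Resting lymphocytes, which fill much of the spleen, draw most of their ATP from this chain, and activated lymphocytes and inflammatory macrophages shift towards glycolysis.

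Levels are given as the log2 processed signal minus the 75th percentile of the array, so a level of 0 is the 75th percentile of that array. A difference is IL2RG +/- minus the mean of the 3 WT arrays, on the log2 scale, and the error of a difference is the standard error (SE) of the limma fit. A probe was called where its Benjamini-Hochberg adjusted p from limma over all 33464 probes tested was under 0.05 and the difference was at least 2-fold. WT 1 and IL2RG +/- lay on slide 1, and WT 2 and WT 3 lay on slide 2 with a scan of its own. The difference between IL2RG +/- and WT 1 is therefore the only one between the groups within a slide. It is plotted for every gene and given in the text for those that stood apart from WT or moved most. Between 66.1% and 72.7% of the spots were well above background on each array, and 0 spots were saturated. The labels were checked on IL2RG itself. Its first probe read -0.64, -1.49 and -1.48 on WT 1, WT 2 and WT 3 and -1.98 on IL2RG +/-, and its other probe read -1.18, -2.11, -2.18 and -3.95. Both were below every WT array, with adjusted p of 0.578 and 0.402 by limma. Markers of B cells and macrophages differed far more than the genes described here. Of 4 B cell markers tested 3 were lower and 1 was higher. CD79A and MS4A1 differed by -4.12 and -4.92, whereas CD72 differed by 1.49 and was above every WT array. All 6 macrophage markers tested were higher, with a median difference of 3.13. The 3 erythroid markers split by slide, with medians of -1.36 on WT 1 and -0.16 on IL2RG +/- against 2.80 on WT 2 and 3.59 on WT 3. In bulk spleen, fewer cells of a type and less RNA per cell cannot be told apart, and the part of the cell makeup in the results below was not tested. Of the 10 listed spleen markers 6 were measured, 3 higher and 3 lower. MADCAM1 read 5.58, 5.54 and 5.65 on the WT arrays and 6.01 on IL2RG +/-, CCR7 differed by 0.03, and CCL21, a chemokine of the T cell zone, differed by -2.18 and was below every WT array, with an adjusted p of 0.342 by limma. TLX1 and NKX2-5 had no named probe.

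As a group the respiratory chain genes stood close to their WT levels in the IL2RG +/- spleen. The median difference of the 27 genes was 0.013, against -0.11 over all probes tested. That order turned with the scaling, to -0.19 against -0.02 after quantile normalisation and -0.18 against -0.02 in the value table of the authors, and it was -0.02 against -0.04 after normexp background correction. The size of the difference had a median of 0.19, against 0.46 over all probes tested, 0.35 over the brightest 25% of probes and 0.49 over the brightest probes of all named genes. The gap to all probes was smaller after quantile normalisation, at 0.26 against 0.42, and after normexp, at 0.19 against 0.25. In 17 of the 27 genes (63.0%) the difference was smaller than 0.25 in either direction, and that held for 29.9% of all probes, 37.9% of the brightest 25% and 28.8% of named genes. Over the 3 WT arrays the genes had a median SD of 0.17, against 0.33 over all probes and 0.25 over the brightest 25%. After normexp these SDs were 0.18 for the genes and 0.20 for all probes, so that most of this gap was absent in that setting. It also used another signal and an offset, and their parts were not tested. These shares describe the group, and the difference between them was not tested.

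By the measured signals, 17 genes read higher in IL2RG +/- and 10 lower. The IL2RG +/- value lay above all 3 WT arrays in 10 genes, where 27.0% of all probes and 41.1% of the brightest 25% did so, and below all 3 in 2 genes, where 34.9% of all probes and 22.4% of the brightest 25% did so. These 2 were UQCRB and COX8H, and for COX8H the order of IL2RG +/- and WT 1 was not measured, since neither was well above background. In the other 15 genes it lay within the WT range. A single gene, COX7A1, was at least 2-fold higher (7.71% of all probes) and a single gene, COX8H, at least 2-fold lower in measured signal (13.4%), although its bound, given with its values, was under 2-fold. None of the 27 genes was called, with 0 called and 0.0% of all probes called by limma. The smallest adjusted p among the genes was 0.400, and over all probes it was 0.0715. At an unadjusted limma p under 0.05 there was 1 gene, COX7A1, which was higher. Of all probes 11.3% passed that limit, and 5.33% passed it and were higher.

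The split into higher and lower genes moved with the scaling of the arrays, because most differences were so small. It was 17 to 10 with the 75th percentile, 23 to 4 with the array median, 13 to 14 after normexp background correction, 10 to 17 with the 75th percentile of probes well above background on all arrays, 9 to 18 after quantile normalisation and 9 to 17 in the value table of the authors, which lacks COX8H. Within slide 1 it was 13 to 14, with a median of -0.014. The median over the genes ran from -0.19 to 0.26 across these scalings, and the median over all probes from -0.22 to 0.14. No direction can be given for the genes as a whole. Counting the processing used for the results and 14 alternatives, 9 genes were higher in every setting that measured them, 3 were lower in every one and 15 took both signs. The first 9 were NDUFB6, SDHB, SDHD, COX5B, COX6A1, COX6B, COX7A1, COX7C and ATP5G3, and the 3 were UQCRB, COX8H and NDUFA4L2. For COX8H that count includes signals that were not well above background. Alternatives that changed only the probe filter or the variance estimate leave each difference unchanged, so they could not change a sign.

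**Figure D1:**
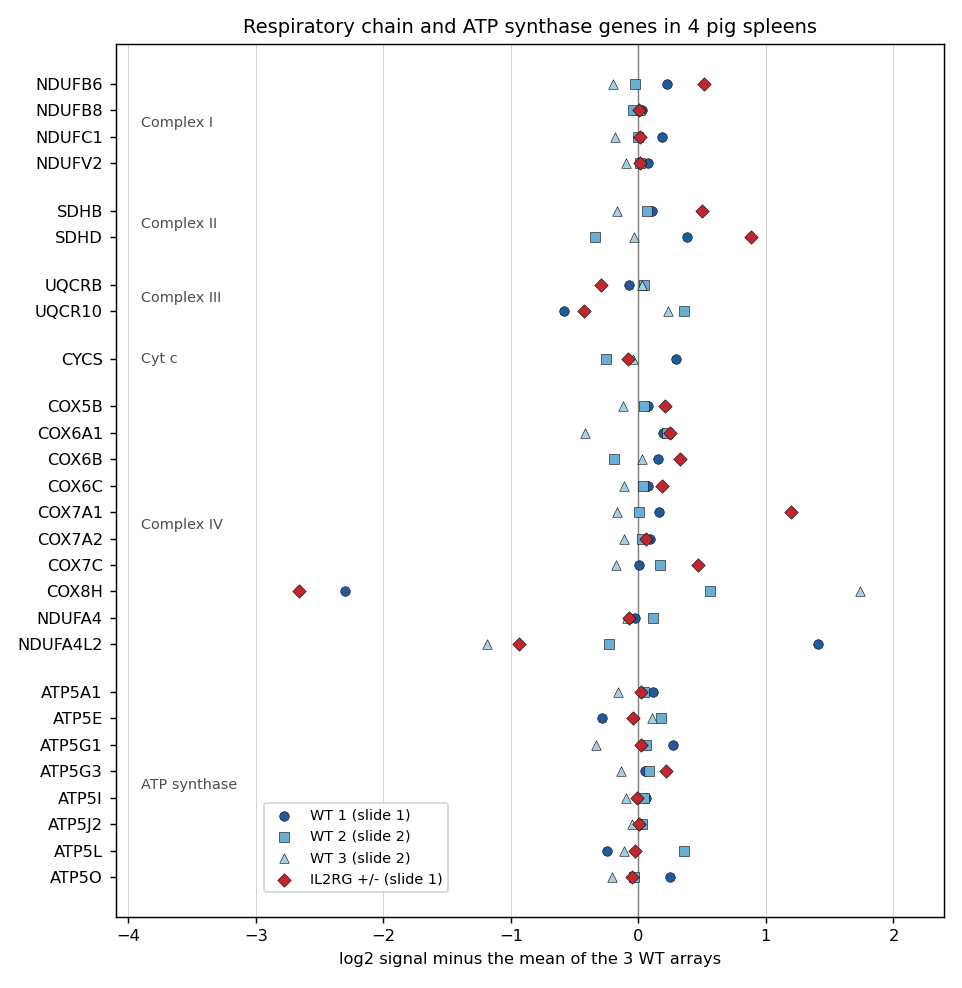
Level of each of the 27 genes on each array relative to the mean of its 3 WT arrays (x axis, log2 units), grouped by complex, with 1 symbol per array. Most red IL2RG +/- symbols lie among the blue WT symbols near 0, those of SDHB, SDHD, COX7A1 and COX7C lie to the right of all 3 WT arrays, and COX8H and NDUFA4L2 are spread widely among the WT arrays themselves.

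Both measured subunits of complex II were above every WT array. SDHD, which anchors the complex in the membrane and binds its haem, read 3.14, 2.42 and 2.73 on WT 1, WT 2 and WT 3 and 3.65 on IL2RG +/-. The IL2RG +/- spleen was the highest of the 4 and the groups did not overlap. The difference was 0.88 (SE 0.40), or 1.85-fold, with an adjusted p of 0.496 by limma, so it did not pass the threshold. SDHB, the iron-sulfur subunit that hands electrons on to ubiquinone, read 4.11, 4.07 and 3.84 on the WT arrays and 4.51 on IL2RG +/-. Here too the IL2RG +/- array was the highest, with a difference of 0.50 (SE 0.29; adjusted p 0.565 by limma), or 1.41-fold.

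IL2RG +/- was the highest array for every probe of the complex II genes. For SDHB, 7 of 7 probes lay above all WT arrays, with differences from 0.40 to 0.86, and for SDHD 5 of 5 probes did so, with differences from 0.49 to 1.12. Probes of a gene share its transcript and the same RNA, so they repeat the measurement and not the animals. The difference was smaller within slide 1, at 0.39 for SDHB and 0.50 for SDHD, because WT 1 was the highest WT array for both of these probes. Over their probes it ran from 0.35 to 0.47 for SDHB and from 0.50 to 0.73 for SDHD. Across all scalings SDHB stayed between 0.28 and 0.75 and SDHD between 0.69 and 1.13. Over the alternatives the adjusted p ran from 0.228 to 0.981 for SDHB and from 0.116 to 0.980 for SDHD. SDHA, the flavoprotein that oxidises succinate, and SDHC had no named probe.

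**Figure D2:**
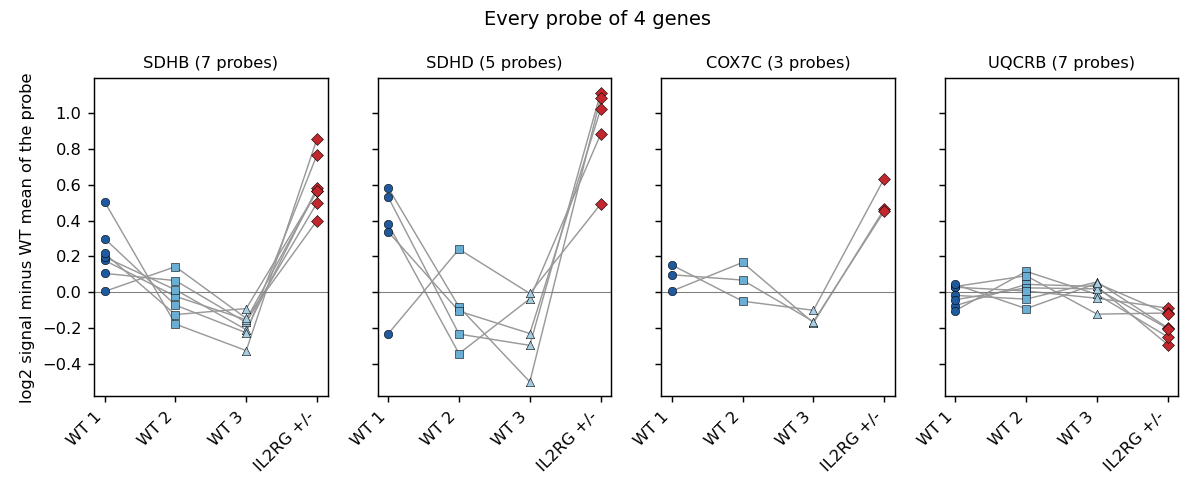
Every probe of SDHB, SDHD, COX7C and UQCRB on the 4 arrays, as the log2 signal minus the WT mean of the same probe (y axis); grey lines join the values of a probe and carry no order in time. All 7 SDHB, 5 SDHD and 3 COX7C probes are highest on IL2RG +/-, and 6 of 7 UQCRB probes are lowest there.

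Complex I was represented by 4 of its many subunits, with a median difference of 0.012. NDUFV2, a core iron-sulfur protein of the module that takes electrons from NADH, read 4.37, 4.31 and 4.20 on the WT arrays and 4.30 on IL2RG +/-, a difference of 0.013 (SE 0.27). NDUFB8, in the membrane arm, gave 5.14, 5.08 and 5.12 on the WT arrays and 5.12 on IL2RG +/-. NDUFC1, another membrane arm subunit, differed by 0.011. All 3 lay within the WT range by their brightest probes. That of NDUFB8 was among the least variable of the set, with an SD of 0.035 over the WT arrays. The 4 NDUFB8 probes differed by -0.12 to 0.18, and 2 of them lay below all WT arrays. Its brightest probe did so too after quantile normalisation, after normexp and in the value table of the authors, and lay above them with the array median. NDUFB6, also of the membrane arm, stood apart from these 3 genes. It read 3.25, 3.00 and 2.83 on the WT arrays and 3.54 on IL2RG +/-, above all 3 WT arrays, with a difference of 0.51 (SE 0.31; adjusted p 0.576 by limma). Both NDUFB6 probes lay above the WT arrays. The difference was 0.29 within slide 1 and positive in every setting, from 0.29 to 0.76.

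The subunits of complex III were the only pair with both values lower. UQCRB, which helps to form the ubiquinone site, read 4.81, 4.93 and 4.92 on the WT arrays and 4.59 on IL2RG +/-. That was below every WT array, with a difference of -0.29 (SE 0.27; adjusted p 0.680 by limma), and 6 of its 7 probes were below all WT arrays, with differences from -0.29 to -0.089. Within slide 1 the difference of UQCRB was -0.22, and it was negative in every setting, from -0.53 to -0.048. UQCR10, a small accessory subunit, split by slide instead. It read 5.67 on WT 1 and 5.84 on IL2RG +/- of slide 1, against 6.62 and 6.49 on WT 2 and WT 3 of slide 2. Its difference of -0.42 (SE 0.50; adjusted p 0.743 by limma) turned to 0.16 within slide 1. CYCS, the cytochrome c that links complexes III and IV, read 4.24, 3.70 and 3.91 on the WT arrays and 3.87 on IL2RG +/-, within the WT range. Its 12 probes disagreed in sign, with 10 higher and differences from -0.096 to 0.43, and the brightest probe was among those that were lower, at -0.081.

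Complex IV had the most measured members and the widest range. Of its 10 genes, 6 lay above every WT array, 1 below and 3 within. Over all probes tested 27.0% lay above, and over the brightest 25% it was 41.1%. The median difference of the 10 genes was 0.20, which was 0.083 within slide 1 and -0.027 after quantile normalisation. NDUFA4 is counted here, since this protein, first assigned to complex I, is a subunit of complex IV, and its paralogue NDUFA4L2 is placed beside it. COX7C, a small subunit without a muscle form, read 6.25, 6.41 and 6.07 on the WT arrays and 6.70 on IL2RG +/-. The IL2RG +/- value was the highest, with a difference of 0.46 (SE 0.30; adjusted p 0.585 by limma), and the same 0.46 was found within slide 1. All 3 COX7C probes were above the WT arrays, from 0.45 to 0.64, and the gene was positive in every setting, from 0.28 to 0.71. COX6B, on the side of the complex that faces cytochrome c, read 5.50, 5.15 and 5.38 on the WT arrays and 5.67 on IL2RG +/-, a difference of 0.32 (SE 0.30), which was 0.17 within slide 1. After quantile normalisation and in the value table of the authors it fell to 0.030 and 0.028 and was not above all WT arrays. The other COX6B probe differed by 0.068 and lay within the WT range.

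The remaining broadly used subunits of complex IV differed by less. COX6A1, the form of subunit VIa outside muscle, read 6.77, 6.80 and 6.16 on the WT arrays and 6.83 on IL2RG +/-. The difference of this probe was 0.25 (SE 0.39), and it was 0.040 without WT 3 and 0.057 within slide 1. All 5 COX6A1 probes were above the WT arrays, with differences from 0.22 to 0.28, and from 0.057 to 0.22 within slide 1. COX5B and COX6C, nuclear-encoded subunits of the same complex, were higher by 0.21 and 0.19 and lay above the WT arrays in 3 of 3 probes each. Within slide 1 their differences were 0.13 and 0.11. COX5B fell to 0.03 in the value table of the authors, and COX6C turned to -0.09 over the scalings and lay below all WT arrays after quantile normalisation and in that table. NDUFA4 read 6.11, 6.25 and 6.04 on the WT arrays and 6.06 on IL2RG +/-. It lay within the WT range with a difference of -0.072, although 5 of its 6 probes were higher.

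COX7A1 had the largest difference among the 26 genes well above background on all arrays. It encodes the heart and muscle isoform of subunit VIIa, and COX7A2 encodes the isoform of most other tissues. COX7A1 read 2.63, 2.47 and 2.30 on the WT arrays, a mean of 2.47 ± 0.16 (SD, n = 3), and 3.66 on IL2RG +/-. The 3 WT spleens lay close together and the IL2RG +/- spleen more than 1 log2 unit above the highest of them. The difference was 1.20 (SE 0.29), or 2.29-fold, and 1.04 within slide 1. Its unadjusted limma p was 0.0157 and its adjusted p 0.400, so it was not called, and adjusted p ran from 0.0889 to 0.980 over the alternatives. The difference held between 1.01 and 1.44 in every setting, but it rests on 1 probe. COX7A2 was different: it read 5.95, 5.88 and 5.74 on the WT arrays and 5.92 on IL2RG +/-, within the WT range, with 5 probes between -0.11 and 0.13.

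The muscle markers, given here because COX7A1 is a muscle isoform, had no common direction. Of 8 muscle markers with a probe, MYH2 and MYL2 were well above background on 0 of 4 arrays, 2 of the other 6 were higher and 4 lower, and their median difference was -0.15. The sarcomere genes TNNT1 and ACTN2 differed by -1.63 and -1.20, both below every WT array, while CKM, the muscle creatine kinase, and ACTA1, the skeletal actin, differed by 0.35 and -0.07 and lay within the WT range. Of their probes, 7 of 10 for CKM and 13 of 16 for ACTA1 were higher. MYH7, the slow myosin, was well above background on 3 of the 4 arrays. The median of the muscle markers was -2.39, -2.10 and -2.92 on the WT arrays and -3.72 on IL2RG +/-, and the part of muscle RNA in the COX7A1 values was not tested.

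COX8H and NDUFA4L2 were dim and varied widely among WT animals. COX8H, the heart isoform of subunit VIII, was well above background on WT 2 and WT 3 only, at -4.65 and -3.47, whereas WT 1 read -7.51 and IL2RG +/- -7.87 and neither was well above background. As a bound that takes WT 1 at its measured signal, the WT mean was at least 1.51-fold higher than IL2RG +/-. Since that signal was not well above background, the bound is not firm for the WT group. Neither array of slide 1 was well above background, so that their difference is no measure of expression. The erythroid marker KLF1 had the same split, at -4.68 on WT 1 and -3.17 on IL2RG +/- against 4.06 and 4.38 on WT 2 and WT 3, and its part in the COX8H values was not tested. NDUFA4L2, a paralogue known as a target of hypoxia signalling, read -0.01, -1.64 and -2.60 on the WT arrays and -2.35 on IL2RG +/-. The SD over the WT arrays was 1.31, and the IL2RG +/- value lay inside their range, with a difference of -0.93 (SE 1.11; adjusted p 0.746 by limma). The difference against WT 1 alone was -2.35, because WT 1 was the highest array.

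**Figure D3:**
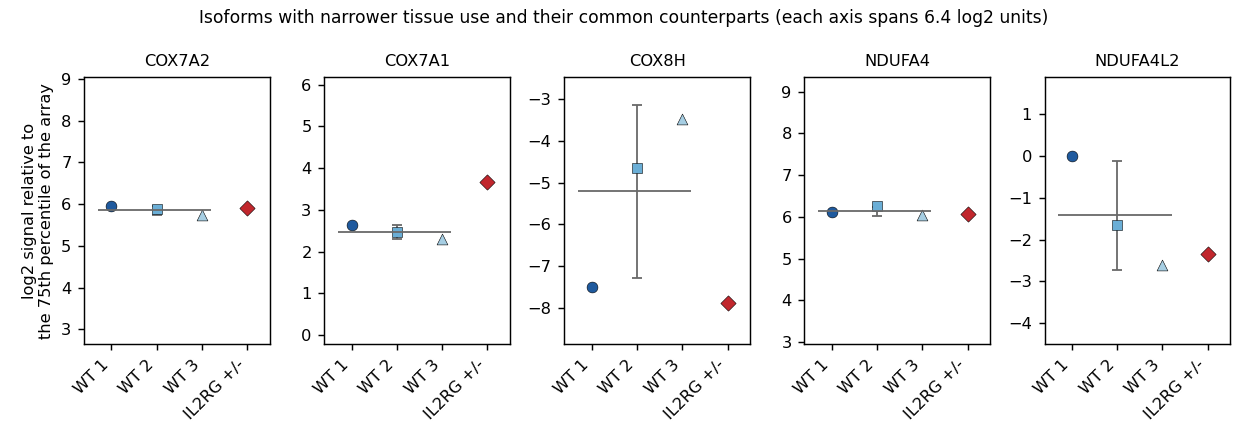
Level of COX7A2, COX7A1, COX8H, NDUFA4 and NDUFA4L2 on the 4 arrays, as the log2 signal after subtraction of each array's 75th percentile (y axis, all panels span the same number of log2 units); the grey line and bar are the mean and SD of the 3 WT arrays. COX7A1 is 3.66 on IL2RG +/- against 2.30 to 2.63 on the WT arrays, COX7A2 and NDUFA4 are level, and COX8H on WT 1 and IL2RG +/- was not well above background.

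The 8 genes of the ATP synthase had a median difference of -0.002, with 4 higher and 4 lower, and all 8 differed from the WT mean by less than 0.25, from -0.049 to 0.22. Their median ran from -0.21 to 0.24 over the settings. Within slide 1 ATP5O and ATP5G1 reached -0.29 and -0.25. ATP5A1, the alpha subunit of the catalytic head, read 6.66, 6.59 and 6.39 on the WT arrays and 6.57 on IL2RG +/-, a difference of 0.021 (SE 0.28). Its 14 probes ran from -0.063 to 0.42, and 5 of them were above all WT arrays. ATP5E, the epsilon subunit of the central stalk, read 7.24, 7.70 and 7.64 on the WT arrays and 7.48 on IL2RG +/-. The value lay inside the WT range, with a difference of -0.044, but a second ATP5E probe gave -0.76.

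ATP5O, which encodes the oligomycin sensitivity-conferring protein of the peripheral stalk, read 5.36, 5.08 and 4.91 on the WT arrays and 5.07 on IL2RG +/-, within the WT range. All 10 of its probes were below WT 1, by -0.28 to -0.48 as a log2 difference, whereas against the WT mean 4 of the 10 were higher. The genes of the membrane rotor gave one value inside and one outside that range. ATP5G1 differed by 0.020, whereas ATP5G3, which codes for the same mature c subunit, read 6.42, 6.46 and 6.24 on the WT arrays and 6.59 on IL2RG +/-. In the processing used for the results that was the only ATP synthase gene above all WT arrays, with a difference of 0.22 (SE 0.28; adjusted p 0.764 by limma). The ATP5G3 difference was 0.17 within slide 1. It fell to 0.021 after quantile normalisation and 0.018 in the value table of the authors, and in neither was ATP5G3 above all WT arrays. With the array median ATP5A1, ATP5E, ATP5I and ATP5J2 lay above them too, and after normexp ATP5L did. In the processing used for the results ATP5I, ATP5J2 and ATP5L, small subunits of the membrane part, differed by -0.007, 0.003 and -0.026. The brightest ATP5J2 probe spanned no more than 6.03 to 6.11 over the 4 arrays, and the other differed by -0.23, within the WT range.

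**Figure D4:**
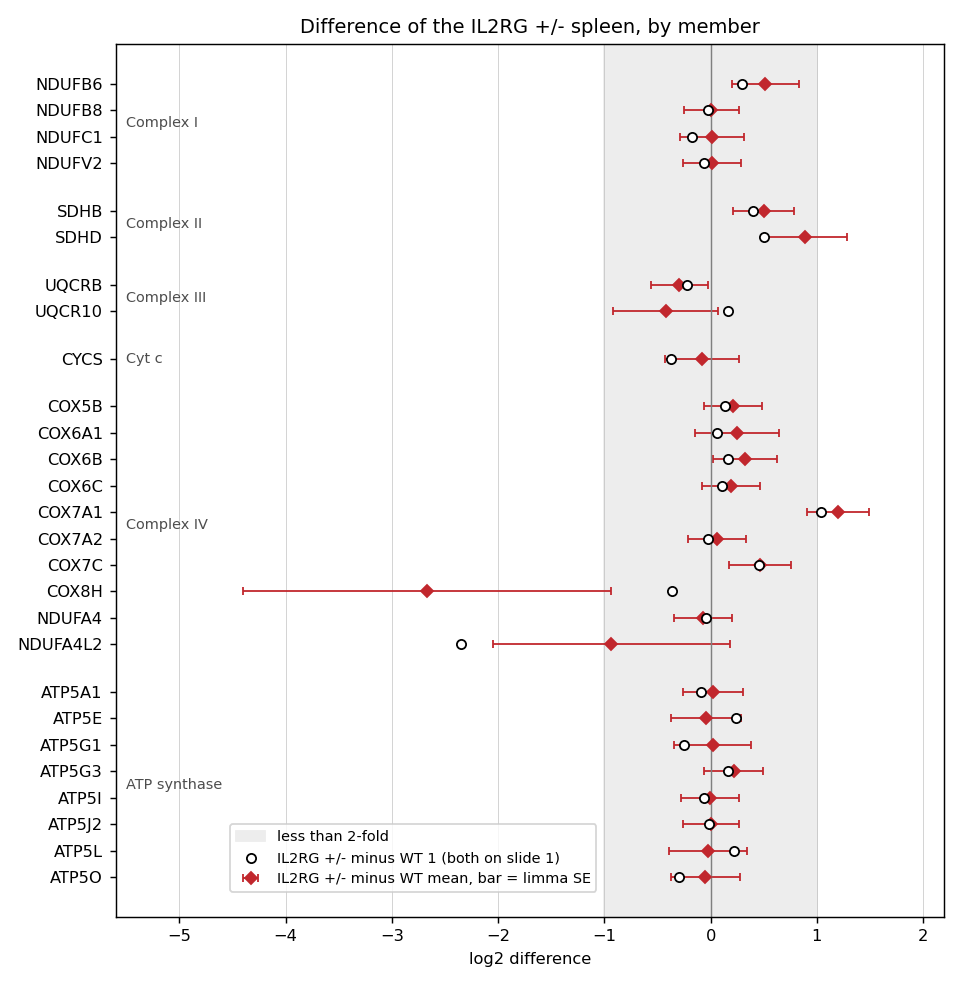
Difference of the IL2RG +/- spleen from the WT mean for each gene (x axis, log2 units; red diamond, bar = SE of limma), with the difference from WT 1 on the same slide as an open circle and differences under 2-fold shaded. COX7A1 (1.20) and COX8H (-2.66, not well above background on IL2RG +/-) are the only genes beyond the shading, the open circle of COX8H joins signals that were both not well above background, and that of UQCR10 lies on the other side of 0 from its diamond.

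The measured differences were thus unequal among the complexes, and the order of their medians was complex II at 0.69, complex IV at 0.20, complex I at 0.012, the ATP synthase at -0.002, cytochrome c at -0.081 and complex III at -0.36. Within slide 1 the medians were 0.45, 0.083, -0.042, -0.039, -0.37 and -0.027. Complex II stayed the highest and positive, from 0.45 to 0.94 over the settings, but it rests on 2 genes. Of the 22 genes with more than 1 probe, 9 had all probes higher and 4 all probes lower, and 7 had all probes above every WT array: NDUFB6, SDHB, SDHD, COX5B, COX6A1, COX6C and COX7C. The matching shares over other genes with more than 1 probe were not computed, so these counts have no background. After quantile normalisation and in the value table of the authors, the brightest probes of COX5B, COX6A1 and COX6C were not above all WT arrays. Over all 110 probes, 78 were higher, 43 lay above all WT arrays and 15 below. Higher values were found for 14428 of all 33464 probes tested and for 5010 of the 8366 probes in the brightest 25%. The lean of the 110 probes was absent within slide 1, where 52 lay above WT 1 and 58 below it. Their middle value there was -0.021. Above all WT arrays lay 27.0% of all probes tested and 41.1% of the brightest 25%, and below lay 34.9% and 22.4%. The share above was thus no larger than among the brightest 25%, and these shares were not tested. The WT arrays differed from each other by about as much as IL2RG +/- differed from them. Over the 27 genes, WT 1 lay a median of 0.24 in size from the average of the slide 2 arrays, and WT 2 lay 0.18 from WT 3.

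Other genes of the pathway were taken from fixed lists, with the brightest probe per gene. The tricarboxylic acid cycle feeds the chain and contains complex II as one of its steps. Of 18 listed cycle genes other than complex II, 11 were measured, 6 higher and 5 lower, with a median of 0.00, a range from -0.32 to 0.32, and 0 called. SUCLG1, of the step that makes succinate, read 3.48, 3.25 and 3.11 on the WT arrays and 3.60 on IL2RG +/-, a difference of 0.32, above all WT arrays. Within slide 1 the SUCLG1 difference was 0.12. DLAT of the pyruvate dehydrogenase complex differed by 0.31, and IDH2 and CS, the mitochondrial isocitrate dehydrogenase and citrate synthase, by -0.32 and -0.29. Against the WT mean the brightest probes of SDHD and SDHB differed by more than those of any cycle gene. Within slide 1 IDH2 differed by more, at -0.73. Against the WT mean, the other probes of CS reached up to 0.66.

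Assembly factors build the complexes, and 4 of 49 listed were measured. TMEM242, which helps to assemble the ATP synthase, read 3.98, 3.52 and 3.71 on the WT arrays and 4.62 on IL2RG +/-, above all 3, with a difference of 0.88 (SE 0.32; adjusted p 0.451 by limma). COX10, which makes the haem of complex IV, differed by 0.51, and NDUFAF3, a complex I factor, by -0.26. Within slide 1 TMEM242 differed by 0.63, COX10 by 0.11 and NDUFAF3 by -0.37. PET100, a complex IV factor, read 7.04 on WT 1 against 4.35, 4.07 and 4.37 on WT 2, WT 3 and IL2RG +/-, so its difference of -0.79 came from WT 1. None was called.

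Carriers and pores of the mitochondrial membranes numbered 7 measured of 20 listed, 3 higher and 4 lower, with a median of -0.060 and 0 called. UCP3, an uncoupling protein best known from muscle, read -3.51, -4.08 and -4.00 on the WT arrays and -2.65 on IL2RG +/-, a difference of 1.21 (SE 0.36; adjusted p 0.428 by limma), with both probes higher. VDAC1, a pore of the outer membrane, was above all WT arrays, with a difference of 0.26. Within slide 1 UCP3 differed by 0.85 and VDAC1 by 0.40. SLC25A6, an ADP/ATP carrier, read 8.17, 8.15 and 8.17 on the WT arrays and 7.94 on IL2RG +/-, and 0 of its 6 probes were higher. VDAC3 differed by -1.04, but it split by slide, with 1.97 and 2.23 on slide 1 against 3.73 and 4.10 on slide 2.

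Genes for upkeep and expression of the mitochondrial genome and for protein folding numbered 4 measured of 23 listed. HSPD1 and HSPE1, the chaperonin and its partner, were above all WT arrays, with differences of 0.66 and 0.38, or 0.31 and 0.23 within slide 1, and 12 of 12 HSPD1 probes were higher. TFB1M, which modifies mitochondrial ribosomal RNA, was below all WT arrays, with a difference of -0.72 (SE 0.33; adjusted p 0.505 by limma), and TFAM, which packages mitochondrial DNA, was within them at -0.10. Of 18 listed regulators of mitochondrial content, 8 were measured, 6 higher and 2 lower, with a median of 0.14. PPARGC1A, a coactivator of mitochondrial genes, read -2.27, -1.25 and -0.47 on the WT arrays and -1.99 on IL2RG +/-, within the wide WT range, and MYC was below its WT range, with a difference of -0.28. HIF1A and PPARD differed by 0.27 and 0.26. For the 13 subunits encoded by mitochondrial DNA there was no named probe, so the chain is described here from its nuclear genes alone.

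**Figure D5:**
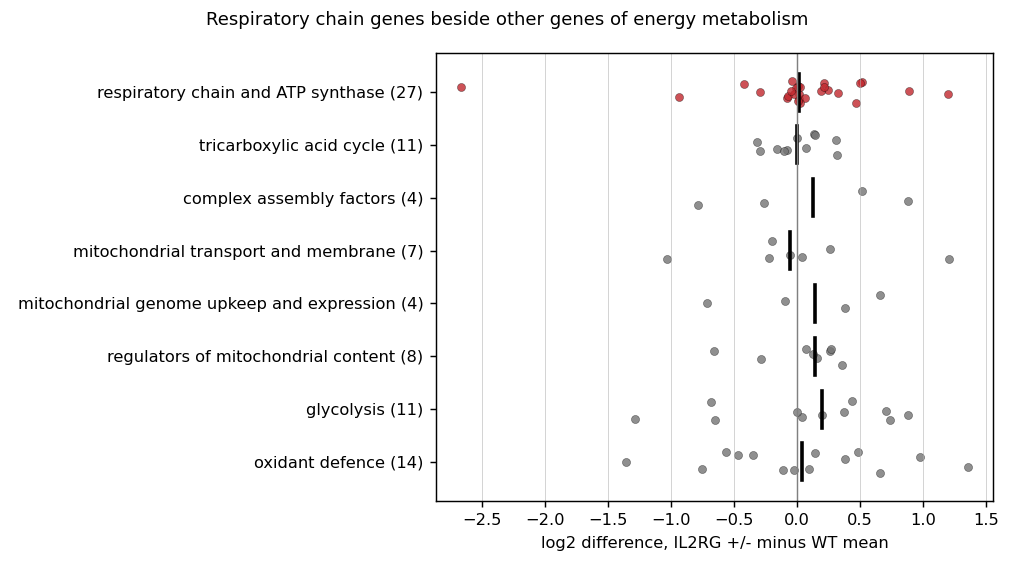
Difference between IL2RG +/- and the WT mean (x axis, log2 units) for each gene of the respiratory chain and ATP synthase (red) and of 7 other lists (grey), with the number measured in brackets and the median as a black bar; the vertical scatter has no meaning. Most respiratory chain genes and all 11 cycle genes lie near 0, whereas glycolysis and oxidant defence genes are more spread, with median sizes of 0.65 and 0.48 against 0.19. Assembly factors and genes of mitochondrial genome upkeep, with 4 measured each, had median sizes of 0.65 and 0.52, and all named genes had 0.49. COX8H at -2.66 (not well above background on IL2RG +/-) and COX7A1 at 1.20 lie beyond all glycolysis genes.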

How the data were processed

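Spleen RNA was measured on 4 one-colour arrays, and per the labels 1 Cy3-labelled sample was hybridised to each; the methods describe a dye pair, but the headers list 1 channel. The authors extracted the deposited intensity values with Feature Extraction 11.0.1.1, background-corrected and not normalised between arrays. The deposited value table holds log2 values of 27421 probes with a median of 8.62 in each of its 4 columns. They follow the log2 processed signal with r of at least 0.9999, the exact normalisation is not stated, and the table served as an alternative. Its differences lay close to those after quantile normalisation, with gene medians of -0.18 and -0.19 and COX7A1 at 1.01 in both. These alternatives thus largely repeat each other.

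For each array the 75th percentile over non-control probes was subtracted from the log2 processed signal, with replicate spots averaged per probe. Spots flagged as non-uniform or population outliers were left out, which removed 28 of 43603 probes. Probes well above background on at least 1 array were tested (33464; 27403 on all 4). Transcript names were matched to the RefSeq table of Sscrofa11.1, used for names only; 6686 probes (15.3%) were named. No coordinates are given because the files name no build.

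The groups were compared in R 4.3.3 with limma 3.58.1 (two-sided, lmFit followed by eBayes; 2 residual and 1.93 prior degrees of freedom). All residual degrees of freedom come from WT, and the lone IL2RG +/- array was assumed to vary like WT. P-values thus rest on the spread among the 3 WT arrays and on the limma prior, and the number of arrays limits the precision. An exact permutation test over 4 arrays cannot give a p below 0.25. The fit was also run on simulated arrays drawn without a slide effect, as a check of the code only.

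Genes with values in every array were named by rule: in each complex the 2 genes with the largest positive and the 2 with the largest negative difference, genes at least 2-fold apart or at an unadjusted p under 0.05, and isoform pairs; in other lists the 2 largest in each direction among genes well above background on all arrays. NDUFB8 and ATP5J2 are given beside the rule, for their small spread, and genes outside the rule are given by their difference only. The genes and lists were chosen with earlier results of these data known. Normexp (offset 50) used the median signals, since no mean signal column was given. A planned search of promoter motifs was not run. Python 3.11.15, pandas 2.3.3, numpy 2.4.6 and matplotlib 3.10.9 read the files and drew the figures.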

Additional observations from a re-analysis of the deposited data

How the results depend on the processing

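None of the respiratory chain and ATP synthase genes passed the adjusted threshold under limma in any alternative. The t-test of the methods, which passed 1 of these genes at its unadjusted threshold, passed 0 after Benjamini-Hochberg or Bonferroni adjustment. No paired analysis was possible because there was 1 IL2RG +/- array and the labels give no pairing of animals. The median difference (0.013) became -0.19 after quantile normalisation, 0.26 with the array median and -0.18 in the value table of the authors, and leaving out 1 WT array gave -0.020 to 0.079. Genes outside the WT range (12: 10 above, 2 below) numbered 20 after quantile normalisation (5 above, 15 below), 20 with the array median (18 above, 2 below) and 19 in the value table (5 above, 14 below), and 15 to 20 with 1 WT array left out. Genes at least 2-fold higher (1) numbered 2 with the array median and 1 to 2 with 1 WT array left out. Genes at least 2-fold lower (1) numbered 2 with the percentile over detected probes, 0 after normexp, 0 in the value table, 0 for probes above background on all arrays and 1 to 2 with 1 WT array left out. Genes at an unadjusted p under 0.05 (1) numbered 2 after normexp, 2 with the slide as a block and 0 to 4 with 1 WT array left out: 4 without WT 1, 0 without WT 2 and 0 without WT 3.

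Of 264 values of the 19 genes named by the rule under 14 alternatives, 237 kept their direction, and 27 values of 8 genes reversed. After quantile normalisation NDUFV2 gave -0.20, COX7A2 -0.20 and ATP5A1 -0.17, and the value table gave -0.20, -0.20 and -0.17. With the percentile over detected probes they gave -0.10, -0.052 and -0.091, and NDUFV2 gave -0.065 after normexp. With the array median CYCS gave 0.17, NDUFA4 0.17, ATP5E 0.20 and ATP5O 0.20. With the slide as a block NDUFV2 gave -0.064, UQCR10 0.16, COX7A2 -0.029, ATP5A1 -0.094 and ATP5E 0.24. With the mean of all probes CYCS gave 0.12 and NDUFA4 0.10. With 1 WT array left out, CYCS ran from -0.21 to 0.065 and ATP5O from -0.15 to 0.074 (each positive without WT 1), ATP5E from -0.19 to 0.045 (positive without WT 2 or WT 3), and NDUFV2 from -0.033 to 0.052 and ATP5A1 from -0.057 to 0.079 (each negative without WT 3). The main values of these genes other than UQCR10 were all smaller than 0.1 in size, and UQCR10 turned because WT 1 lay on the slide of IL2RG +/- and was the lowest array. COX8H was the only one of the 27 genes not well above background on all arrays.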

Other observations

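Glycolysis makes ATP outside the mitochondria, and its genes differed more than those of the respiratory chain, with a median size of 0.65 against 0.19. The 4 measured assembly factors also had a median size of 0.65, and all named genes had 0.49. The difference between the lists was not tested. Of 23 listed glycolysis and lactate genes 11 were measured, 7 higher and 4 lower, with a median of 0.20 and 0 called. PGK1, a step that forms ATP, read 5.42, 5.38 and 5.24 on the WT arrays and 6.09 on IL2RG +/-. The groups did not overlap, the difference was 0.74 (SE 0.27; adjusted p 0.451 by limma), and 6 of 6 probes were higher. GPI and HK1 were above all WT arrays, with differences of 0.71 and 0.20. PFKM, the muscle-type phosphofructokinase, and ALDOC, the aldolase form best known from brain, were below all WT arrays, with differences of -1.29 and -0.68. PFKM split by slide, at -0.46 and -0.88 on WT 1 and IL2RG +/- against 0.65 and 1.05 on WT 2 and WT 3, and its difference within slide 1 was -0.41; that of ALDOC was -0.42.

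Of 19 listed oxidant defence genes 14 were measured, 7 higher and 7 lower, with a median of 0.035, which was 0.45 within slide 1, where 12 of the 14 were higher. NQO1 and TXNRD1, which reduce quinones and thioredoxin, were above all WT arrays, with differences of 1.35 and 0.97, adjusted p of 0.476 and 0.434 by limma, and differences of 1.83 and 1.21 within slide 1. TXNRD2, the mitochondrial thioredoxin reductase, read 1.98 and 1.86 on WT 1 and IL2RG +/- against 3.78 and 3.90 on WT 2 and WT 3, and CAT, the catalase, read 3.74 and 3.98 against 5.14 and 5.33. Both genes thus split by slide, as the erythroid marker KLF1 did, and the part of erythroid cells in these values was not tested.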
